A study of Homo sapiens with 2 samples.

Results

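The genes described here make cholesterol and fatty acids. They were listed by function as 34 genes in 4 groups: 7 of the mevalonate steps, 11 of the sterol steps, 6 that control SREBP or carry sterol inside the cell, and 10 of fatty acid synthesis and desaturation. A probe set was taken for a gene only if the array's annotation gave it that gene and no other. This left 30 of the 34 genes, with 66 probe sets, among 19775 named genes on the array. FDFT1 and ACSL3 had no probe set under their names, and those of CYP51A1 and FADS1 also listed a second gene, so these 4 are not described by value. All 30 were measured, that is, above the median signal of at least 1 array (the floor, 28.7 without and 28.4 with stretch), and each exceeded it in both arrays.

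The samples were 2 cultures of Calu-3, a human lung adenocarcinoma line used as a model of airway epithelium, each measured on 1 Affymetrix array. The stretched culture spent 18 h on a device that pulled its flexible, collagen-coated plate to between 0.7% and 20% stretch in a sine wave of 2 s on and 2 s off. The non-stretched culture carries the same 18 h in its label and had no stretch. Both were plated to about 80% confluence per the protocol, although the design text calls the cells confluent, and were changed to medium with 10% fetal bovine serum, whose lipoproteins supply cholesterol. No transgene or drug is named for either culture. With 1 array per group (n = 1) there is no SD, no p-value and no replicate check, and every difference below compares these 2 arrays.

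Cholesterol is built from acetyl-CoA in a first series of reactions that ends in farnesyl diphosphate, the mevalonate steps, and a second that joins this unit into squalene, closes the rings and trims the sterol. Fatty acids are built from the same acetyl-CoA. Most of these genes are targets of the SREBP transcription factors, which are held in the endoplasmic reticulum by SCAP and the INSIG proteins while sterol is plentiful and are cut free when it falls. The SREBP that SREBF2 encodes mainly drives sterol genes and the one from SREBF1 mainly fatty acid genes. In airway epithelium the products feed membranes and secreted lipid.

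Values are the deposited intensities, on a linear scale, of a gene's brightest probe set. Differences are log2 stretched minus log2 non-stretched. Median signals of the arrays were 28.7 and 28.4, whereas the 75th percentile was higher in the stretched array by 0.11 on the log2 scale and the 18 hybridisation spike-in probe sets were lower by a median of 0.11 (range of differences -0.23 to -0.03). Centring the arrays on the former moved the median difference of all measured genes from 0.01 to -0.10, and centring on the latter moved it to 0.12, so a gene or a median closer to 0 than this has no settled direction. The SD of a single probe set's log2 difference, from pairs of probe sets of the same gene, was 0.36 over 5818 genes and 0.22 over the 2595 genes with both probe sets above the 75th percentile; it leaves out variation between cultures. All 8 epithelial markers (EPCAM, CDH1, KRT8, KRT18, KRT19, CLDN4, MUC1, CFTR) were above the floor in both arrays, with summed signals of 52398 and 48699 (a sum over probe sets that are not on a common scale). They did not move together: MUC1 was at -1.45 (2093 to 767.4), CFTR at -1.43 (5924 to 2199) and CLDN4 at -0.67, while KRT8, KRT18 and KRT19 were at 0.21, 0.22 and 0.13. Their part in the differences below was not tested. The 4 adipocyte markers, of a cell type rich in fatty acid synthesis, were all below it, with sums of 28.2 and 34.9. Of the other markers, 2 of 5 leukocyte genes (CD14 and LYZ), 1 of 4 endothelial (PECAM1), 2 of 6 fibroblast (COL1A1 and DCN) and 0 of 3 smooth muscle genes were above it in both, and PTPRC and CDH5, which define leukocytes and endothelium, were below it. LYZ, a lysozyme that airway gland cells also make, gave 1220 of the summed leukocyte signal of 1382 in the non-stretched array and 1462 of 1591 in the stretched array.

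Sterol and fatty acid synthesis genes as a whole had the same median difference as all measured genes, 0.01, while the mevalonate steps lay together on the higher side. None of the 30 genes was at least 2-fold higher or lower by its brightest probe set. Of all 13453 measured genes, 7.78% were higher by that much and 7.49% lower, and of the 7416 genes above the 75th percentile in both arrays, which include 29 of the 30, 5.53% and 3.98%. At 1.5-fold, a smaller limit chosen after the values were seen, 6 of the 30 were higher and 1 was lower. This split depended on the scaling: it was 4 and 3 with centring on the 75th percentile or the loess trend removed, 5 and 3 with quantile normalization, and 6 and 0 with centring on the spike-ins. The shares of all measured genes at that limit were 17.9% and 16.7%, and of the genes above the 75th percentile 17.2% and 11.9%. The median difference of the 30 was 0.01, with 16 above 0 and 14 below, and that of all measured genes was also 0.01, with 50.5% above 0. The members ranged from -0.62 (SREBF1) to 0.87 (ACAT2), while the central 90% of all measured genes spanned -1.23 to 1.24. The typical size of a difference, its median without sign, was 0.33 for the 30, 0.40 for all measured genes and 0.35 for those above the 75th percentile. A difference of more than 0.45, which is 2 SDs of a bright probe set, was seen in 10 of the 30 genes, against 44.9% of all measured genes and 39.9% of those above the 75th percentile. With the probe sets of a gene averaged instead, 2 of the 30 were at least 2-fold higher and 0 lower. The median was then 0.20 for the 30 and 0.04 for all measured genes.

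**Figure D1:**
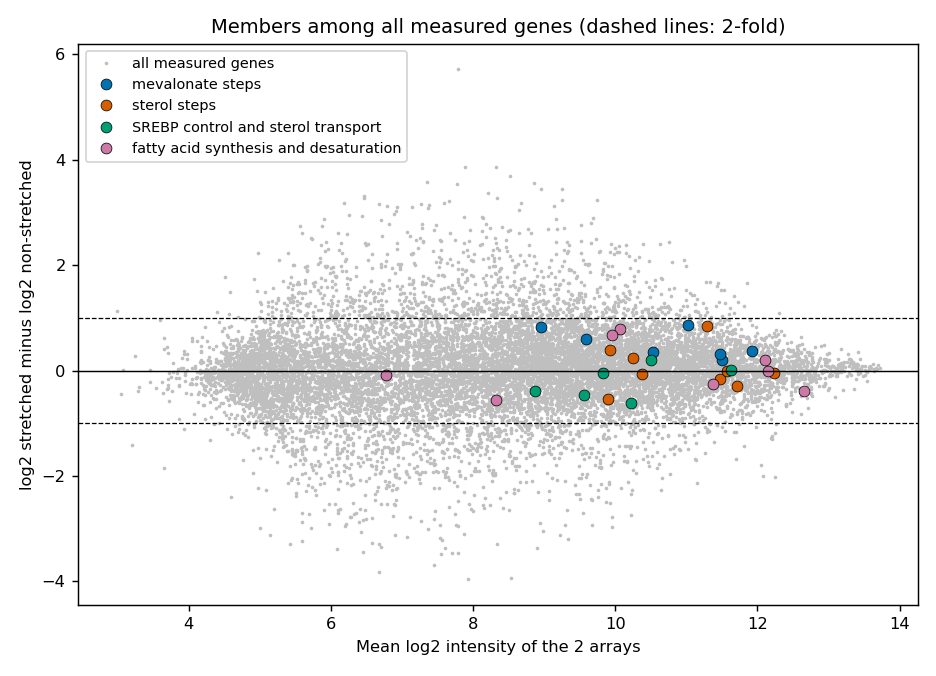
Log2 difference (stretched minus non-stretched, vertical axis) against mean log2 intensity (horizontal axis) for the 13453 measured genes (grey) and the 30 members (coloured by group), by brightest probe set, 1 array per condition. All 30 members lie inside the dashed 2-fold lines, and the 7 mevalonate genes lie above 0.

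The signals of the 30 brightest probe sets lay between 107 and 7411. Signals of different probe sets are not on a common scale, so they are compared only between the 2 arrays.

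**Figure D2:**
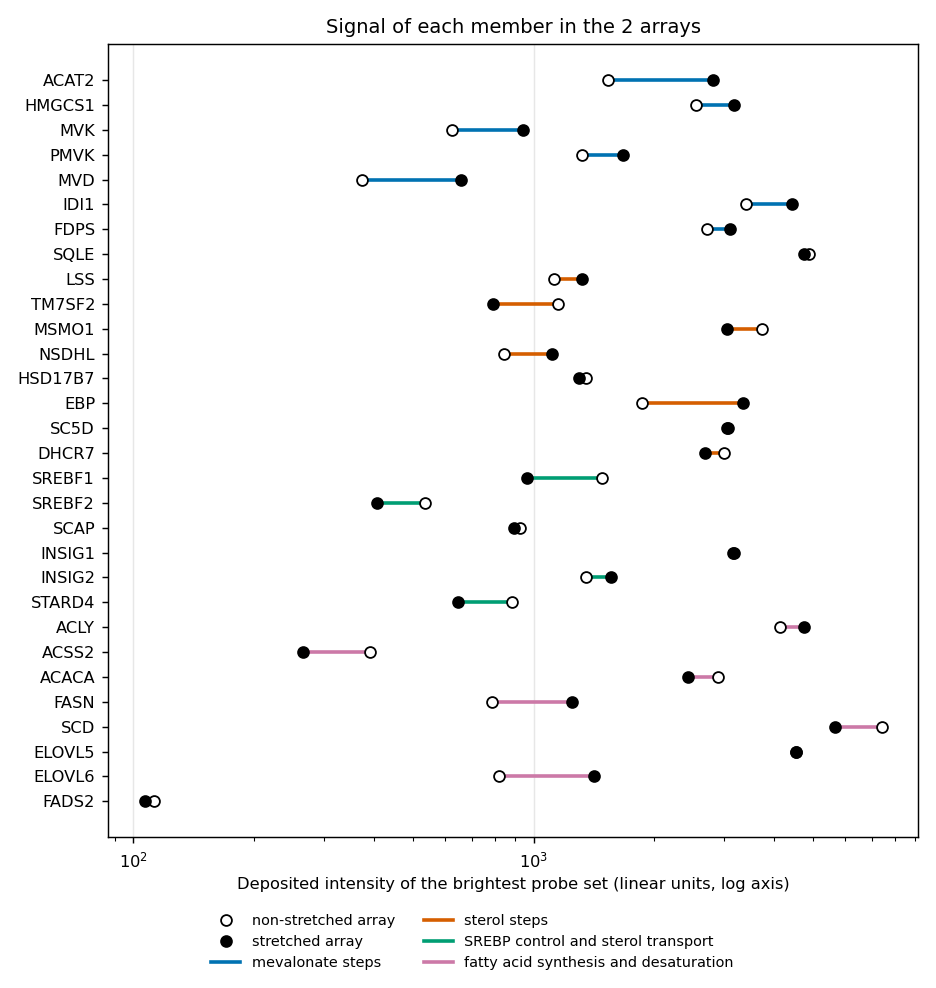
Deposited intensity (log axis) of the brightest probe set of each of the 30 members in the non-stretched array (open circles) and the stretched array (filled circles), joined by a line coloured by group. The stretched value is the higher of the pair for every mevalonate gene, from ACAT2 to FDPS, and pairs such as SC5D, INSIG1 and ELOVL5 coincide.

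The start-site regions of a few members were read for elements known from this pathway. SREBPs bind the sterol regulatory element and act with NF-Y, which binds the CCAAT box, and SP1, which binds the GC box. RefSeq promoter windows (GRCh38.p14) were matched by symbol for 30 of the 34 genes, not for ACAT2, FDFT1, SQLE and FASN, and the 250 bases before each start site were searched on both strands. The bases below are given 5′ to 3′ on the gene's strand and end at the last base before the start site; capitals mark the CCAAT box, which reads ATTGG where it lies on the other strand, and the sterol regulatory element, searched as TCACNCCAC. HMGCS1, MVD and FDPS are shown because the mevalonate genes were higher together, EBP as the sterol gene with the highest value, SREBF2 for its element, and SCD and ELOVL6 as a desaturase and an elongase that differed in opposite directions. The windows are chr5:43313413-43313662 (minus strand) for HMGCS1 (the first listed of its 2 windows), chr16:88663092-88663341 (minus strand) for MVD, chr1:155308616-155308865 (plus strand) for FDPS, chrX:48521558-48521807 (plus strand) for EBP, chr22:41832855-41833104 (plus strand) for SREBF2, chr10:100346983-100347232 (plus strand) for SCD and chr4:110198616-110198865 (minus strand) for ELOVL6.
HMGCS1: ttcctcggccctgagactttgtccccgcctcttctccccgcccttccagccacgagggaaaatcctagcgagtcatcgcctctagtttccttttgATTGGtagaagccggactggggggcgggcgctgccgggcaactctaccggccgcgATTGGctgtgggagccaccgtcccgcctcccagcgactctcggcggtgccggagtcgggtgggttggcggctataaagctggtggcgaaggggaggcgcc
MVD: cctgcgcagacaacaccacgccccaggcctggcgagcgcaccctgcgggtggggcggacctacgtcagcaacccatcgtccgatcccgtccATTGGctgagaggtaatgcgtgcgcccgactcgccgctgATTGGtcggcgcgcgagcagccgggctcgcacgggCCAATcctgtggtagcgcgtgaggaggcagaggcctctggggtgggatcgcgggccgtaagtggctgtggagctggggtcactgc
FDPS: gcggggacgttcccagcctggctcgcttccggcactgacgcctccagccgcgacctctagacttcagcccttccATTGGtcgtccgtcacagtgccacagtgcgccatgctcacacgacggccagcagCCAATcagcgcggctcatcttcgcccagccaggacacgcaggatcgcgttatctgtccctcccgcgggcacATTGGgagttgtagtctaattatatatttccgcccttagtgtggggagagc
EBP: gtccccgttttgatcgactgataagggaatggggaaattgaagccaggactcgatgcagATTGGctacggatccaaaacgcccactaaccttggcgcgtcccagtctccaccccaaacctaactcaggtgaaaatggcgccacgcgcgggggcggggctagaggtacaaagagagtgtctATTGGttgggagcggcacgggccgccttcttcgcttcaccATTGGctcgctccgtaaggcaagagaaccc
SREBF2: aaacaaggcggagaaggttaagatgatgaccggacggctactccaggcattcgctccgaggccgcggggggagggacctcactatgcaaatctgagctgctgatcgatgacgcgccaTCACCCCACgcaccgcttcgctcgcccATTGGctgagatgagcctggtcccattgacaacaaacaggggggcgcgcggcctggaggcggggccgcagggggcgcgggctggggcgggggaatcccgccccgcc
SCD: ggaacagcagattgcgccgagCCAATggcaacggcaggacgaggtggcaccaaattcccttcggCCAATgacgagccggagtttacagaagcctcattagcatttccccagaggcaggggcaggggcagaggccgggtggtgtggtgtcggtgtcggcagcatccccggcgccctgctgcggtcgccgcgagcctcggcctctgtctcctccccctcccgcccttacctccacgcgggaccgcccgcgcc
ELOVL6: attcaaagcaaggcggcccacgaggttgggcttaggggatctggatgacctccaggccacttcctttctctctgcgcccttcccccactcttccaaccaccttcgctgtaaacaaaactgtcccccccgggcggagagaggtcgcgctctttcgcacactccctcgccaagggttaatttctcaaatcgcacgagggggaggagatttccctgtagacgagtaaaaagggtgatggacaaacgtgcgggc

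CCAAT was present in 22 of the 30 genes (73.3%), against 37.0% of all 27305 genes in the promoter table and 40.2% of its 15843 protein-coding genes. A gene with several start sites was counted if any of its windows held the motif. The GC box GGGCGG was present in 28 of 30 (93.3%), against 46.2% and 62.1%. The element TCACNCCAC was found in SREBF2 only, as TCACCCCAC 133 to 125 bases before the start, with an ATTGG 106 to 102 bases before it; 1.09% of all genes and 1.19% of protein-coding genes hold this element in such a window. In MVD, FDPS and EBP 3 CCAAT boxes each were found, and 2 in HMGCS1 and in SCD. None of the matches in these 7 windows overlapped another, GC boxes included. The box was found in 5 of 6 mevalonate genes, all of them higher in the stretched array, as was PMVK without it. It was also found in 8 of 9 sterol genes, of which 5 had a difference below 0. Of these 5, HSD17B7 and SC5D were above 0 with the arrays centred on the spike-ins, so their direction is not settled. ELOVL6 was higher and had no CCAAT in its window, whereas SCD had the box and was lower. A match describes these letters in this window and is not evidence of binding. A window without a match to TCACNCCAC may hold the sterol regulatory element in another spelling, which was not searched.

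All 7 genes of the mevalonate steps had a higher signal in the stretched array, with a median difference of 0.38 (range 0.20 to 0.87), and each stayed above 0 under the 4 other scalings tried. Centring moves all genes together by 0.11, less than the smallest of these differences, so it could not change their signs. The choice of probe set did change the sign of MVK. Of the 7, 3 were at least 1.5-fold higher and 0 lower, against 17.9% and 16.7% of all measured genes. The count of 3 became 2 with centring on the 75th percentile, quantile normalization or the loess trend removed. It was 4 with the probe sets of a gene averaged. ACAT2, the cytosolic thiolase that joins acetyl-CoA units in the first step, went from 1539 without stretch to 2804 with it, 1.82-fold higher. HMGCS1, the HMG-CoA synthase that takes the next step, went from 2543 to 3161, 1.24-fold higher. Its dimmer probe set went from 327.2 to 1088, 3.32-fold higher, so the 2 probe sets had the same direction and differed in size by 1.42 on the log2 scale, the widest gap among the members.

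The kinases and the decarboxylase follow. MVK, which phosphorylates mevalonate, went from 624.2 to 943.6, a difference of 0.60, with a dimmer probe set at 0.89. Another MVK probe set, the only measured one ending in neither _s_at nor _x_at (endings of probe sets that can bind other transcripts too), went from 706.5 to 559.3, a difference of -0.34, so the direction of MVK depends on the probe set. PMVK, which adds the second phosphate, went from 1320 to 1674, 1.27-fold higher. MVD, which removes a carboxyl group to give isopentenyl diphosphate, went from 373.6 to 657.9, 1.76-fold higher. PMVK and MVD had 1 probe set each, both ending in _s_at.

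IDI1, the isomerase that prepares the isoprene units for joining, went from 3405 to 4418, 1.30-fold higher. Its second bright probe set was at 0.39 and its 2 dim ones were at 0.66 and 1.08, all in the same direction. FDPS, which makes farnesyl diphosphate for sterols and for protein prenylation, went from 2707 to 3100, a difference of 0.20, the smallest of the group and less than the SD of a bright probe set. HMGCS1, PMVK and IDI1 were also closer to 0 than 2 such SDs (0.45), while ACAT2, MVK and MVD were farther. When probe sets with those 2 endings were left out, 4 genes were left, of which HMGCS1, IDI1 and FDPS were above 0 and MVK below, with a median of 0.25. Of these 4, 1 was at least 1.5-fold higher. This was IDI1, by a dim probe set close to the floor (46.76 to 73.95), while its 2 bright probe sets were at 0.38 and 0.39. Each array held the RNA of a whole culture, in which more cells with a transcript and more transcript per cell cannot be told apart.

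The sterol steps divided. Of 9 measured genes, 3 were above 0 and 6 below, but SQLE, HSD17B7 and SC5D lay within 0.06 of 0 and were above it with the arrays centred on the spike-ins, and the median of -0.04 became 0.07. EBP, the isomerase that moves a double bond in the sterol ring, went from 1868 to 3346, 1.79-fold higher, and was the only gene of the group past 1.5-fold. Its other probe sets gave 0.79 and 0.66, and 1 near the floor (41.6 and 36.3) gave -0.20. NSDHL, which helps to remove methyl groups from the ring, went from 845.7 to 1114, a difference of 0.40, with its other probe set at 0.57. LSS, which closes the rings to form lanosterol, went from 1123 to 1322, 1.18-fold higher.

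On the lower side, TM7SF2, a reductase of the sterol ring, went from 1153 to 790.6, 1.46-fold lower. MSMO1, the oxidase that starts the removal of methyl groups, went from 3732 to 3039, 1.23-fold lower; each of these had 1 measured probe set. DHCR7, which takes the last reduction to cholesterol, went from 2995 to 2689, with its probe sets at -0.16 and -0.17. TM7SF2 was farther from 0 than the 2 SDs of a bright probe set, while MSMO1 and DHCR7 were not.

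SQLE, the squalene epoxidase, went from 4879 to 4731 in its brightest probe set, 1.03-fold lower. Its 3 other probe sets were at 0.01, 0.83 and 0.94, so SQLE near 0 describes the brightest probe set and not all 4. HSD17B7, a ketone reductase, was at -0.06 (1351 to 1297) by a probe set ending in _x_at. SC5D, which puts in a ring double bond, was at -0.01 (3058 to 3044).

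Of the 6 genes that control SREBP or carry sterol, 4 were below 0 and 2 above. SREBF1 went from 1480 to 964.3, 1.53-fold lower, the lowest value of all 30 members. A dimmer SREBF1 probe set went the other way, from 39.9 to 56.2, a difference of 0.49 close to the floor. SREBF2 went from 535.2 to 406.7, 1.32-fold lower, and its 3 probe sets all lay below 0, at -0.40, -0.05 and -0.51. The SREBF2 window printed above is the one with a match to TCACNCCAC, the spelling of the sterol regulatory element that was searched. SREBPs are known to act on this gene through such an element.

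SCAP, which escorts SREBP to the Golgi, was at -0.05 (926.4 to 892.7), and INSIG1, a retention protein that is itself a sterol-regulated target, was at 0.01 (3143 to 3176); both change sign with the scaling. The 3 INSIG1 probe sets gave 0.01, -0.32 and 0.31, a spread centred on no difference. INSIG2, the related retention protein, went from 1352 to 1558, 1.15-fold higher. STARD4, a soluble carrier of cholesterol between membranes, went from 885.5 to 646.2, 1.37-fold lower. The median of the 6 genes was -0.22 (range -0.62 to 0.21), 2 above 0 and 4 below, and it stayed below 0 under each alternative, at -0.06 when all probe sets of a gene were averaged. This averaged value is closer to 0 than the shift with centring, so its direction is not settled. Messenger levels of these genes do not show how much SREBP was cut and active, which the arrays do not measure.

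Genes of fatty acid synthesis and desaturation had a median of -0.04 (range -0.55 to 0.79) with 4 of 8 above 0, so the group did not lie on a common side of 0. The median was 0.07 with centring on the spike-ins and -0.15 with centring on the 75th percentile. ACLY, which makes cytosolic acetyl-CoA from citrate, went from 4135 to 4730, a difference of 0.19, and its other probe sets were at 0.50 and 0.57. ACSS2, which makes acetyl-CoA from acetate, went from 389.7 to 265.4, 1.47-fold lower by its only probe set. Both enzymes supply the same acetyl-CoA pool, and the ACLY difference in its brightest probe set was within the SD of 0.22.

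ACACA, the carboxylase that makes malonyl-CoA, went from 2893 to 2438, a difference of -0.25, while its dimmer probe set went from 271.7 to 522.4, a difference of 0.94. FASN, which assembles palmitate, went from 787.4 to 1250, 1.59-fold higher, by its only measured probe set. ELOVL6, which lengthens palmitate, went from 817.6 to 1417, 1.73-fold higher, and its 2 dimmer probe sets were 2.16-fold and 3.53-fold higher, from 240.8 to 521.1 and from 116.2 to 410.1. All 3 ELOVL6 probe sets therefore agreed in direction and differed in size.

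SCD, the desaturase that turns the saturated products into monounsaturated fatty acids, went from 7411 to 5665, 1.31-fold lower. Its 4 probe sets ran from -0.69 to -0.35, all below 0, the narrowest span of the 4 members with 4 measured probe sets. The elongase ELOVL6 and the desaturase SCD, which act on overlapping substrates, thus stood on opposite sides of 0 in all of their 7 probe sets.

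Of the enzymes for polyunsaturated fatty acids, ELOVL5 was level in its brightest probe set (4527 and 4529) and at 0.73 in a dim one. FADS2, the first desaturase of that path, was at -0.08 (112.7 to 106.6) in its brightest probe set and 2.09-fold lower in the other (128.1 to 61.3). FADS2 was the only member not above the 75th percentile in both arrays. Both signs are possible for these brightest probe sets, since centring on the 75th percentile puts ELOVL5 below 0 and centring on the spike-ins puts FADS2 above it.

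**Figure D3:**
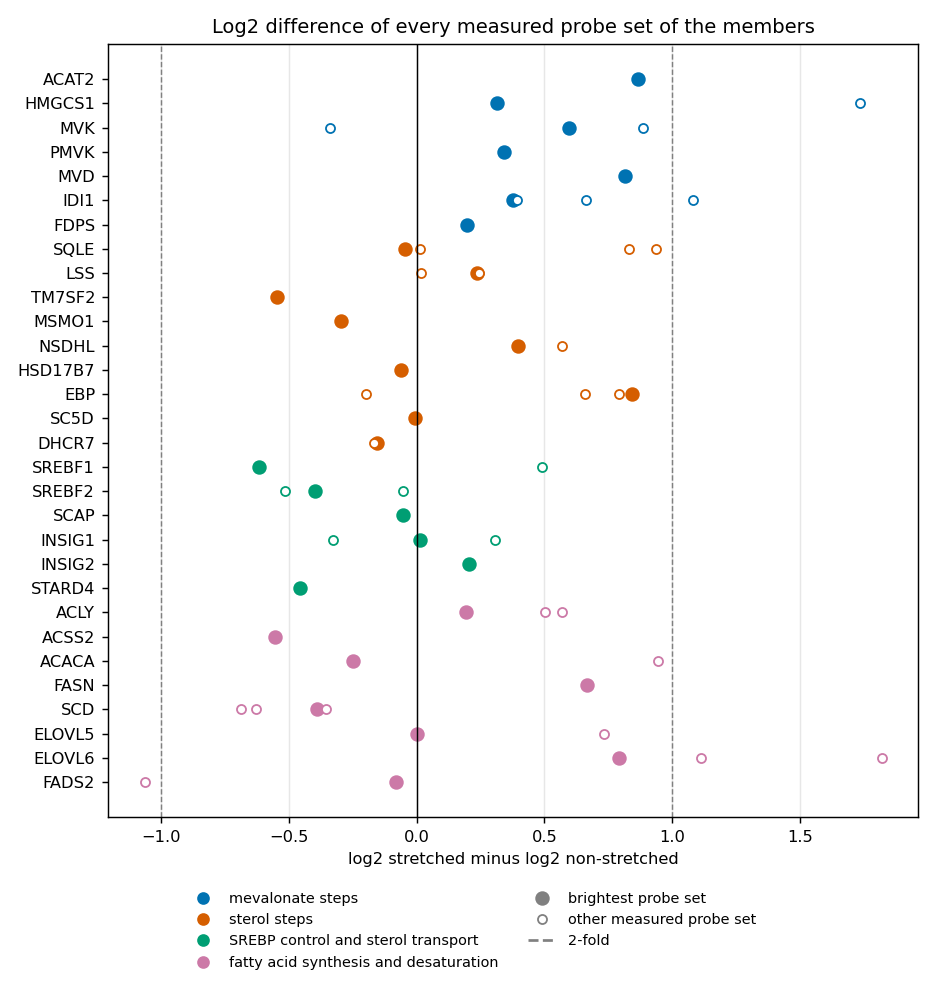
Log2 difference (stretched minus non-stretched) of each of the 61 measured probe sets, by gene and coloured by group; large filled circles are the brightest probe set of a gene and small open circles the others. The dashed lines mark 2-fold, which 4 probe sets exceed to the right (HMGCS1, IDI1 and ELOVL6 with 2) and 1 to the left (FADS2), none of them the brightest of its gene.

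Of the 17 members with more than 1 measured probe set, 7 had all of them above 0 (HMGCS1, IDI1, LSS, NSDHL, ACLY, ELOVL5 and ELOVL6) and 4 had all below (DHCR7, SREBF2, SCD and FADS2). The other 6, which were MVK, SQLE, EBP, SREBF1, INSIG1 and ACACA, had both signs. The gap between a gene's highest and lowest probe set had a median of 0.73, which is larger than the median difference of the mevalonate steps (0.38). The other 13 members had 1 measured probe set and no such check.

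Related lists of lipid metabolism had medians from -0.38 to 0.21. In a list of SREBP processing and cholesterol transport, 17 of 18 genes were measured, 12 lay below 0, and the median was -0.38, with 1 gene at least 2-fold lower and none higher, against 7.49% and 7.78% of all measured genes. MBTPS1, the first protease that cuts SREBP, was at -0.80, and MBTPS2, the second, at -0.13. GRAMD1A, a sterol transporter at membrane contacts, went from 975.2 to 370.8, 2.63-fold lower, although another of its probe sets was at -0.11. SOAT1, which esterifies cholesterol for storage, went from 1247 to 2230, 1.79-fold higher. Of the genes tied to LXR and cholesterol efflux, 8 of 11 were measured, with a median of -0.10 and 2 at least 2-fold lower (all measured genes, 7.49%). MYLIP, a ligase that marks lipoprotein receptors for degradation, was 2.54-fold lower (440.9 to 173.5), with its 4 probe sets from -1.35 to -0.95. CYP27A1, a sterol hydroxylase, was 2.06-fold lower (142.6 to 69.1), and none of the 8 was at least 2-fold higher.

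Among 16 measured genes of the isoprenoid branch and protein prenylation, which draw on farnesyl diphosphate, the median was 0.05, with 8 above 0 and 8 below. PDSS1, which makes the side chain of ubiquinone, went from 379.9 to 1309, 3.45-fold higher, and ICMT, which methylates prenylated proteins, went from 772.7 to 1458, 1.89-fold higher. Further genes of fatty acid synthesis, elongation and activation had a median of -0.02, with 9 of 20 above 0. ACSL5, which activates long-chain fatty acids, went from 363.3 to 929.0, 2.56-fold higher, with its other probe set at 1.67. SCD5, a second desaturase of the SCD type, went from 1438 to 868.9, 1.66-fold lower, but its 3 probe sets ran from -0.73 to 0.53.

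The list of glycerolipid synthesis and lipid droplets had a median of -0.16, and of its 15 measured genes 2 were higher by 2-fold or more and 1 lower (all measured genes, 7.78% and 7.49%). GPAT3, which starts glycerolipid synthesis, was 8.60-fold higher (41.7 to 358.9) from a value near the floor and by 1 probe set. ABHD5, which activates triglyceride breakdown, was 2.48-fold higher (180.1 to 447.4), with its 3 probe sets between 1.31 and 1.43. LPIN2, a phosphatidate phosphatase, was 2.43-fold lower (260.8 to 107.1), with its other probe set at -0.93. Fatty acid oxidation genes had a median of 0.21 with 12 of 19 above 0 (all measured genes, 50.5%). None was past 2-fold, against 7.78% of all measured genes higher and 7.49% lower. SLC25A20, the carnitine carrier of mitochondria, went from 207.5 to 395.8, 1.91-fold higher, and PPARA, a transcription factor for these genes, went from 801.7 to 456.6, 1.76-fold lower, although its 8 probe sets ran from -0.85 to 0.03.

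**Figure D4:**
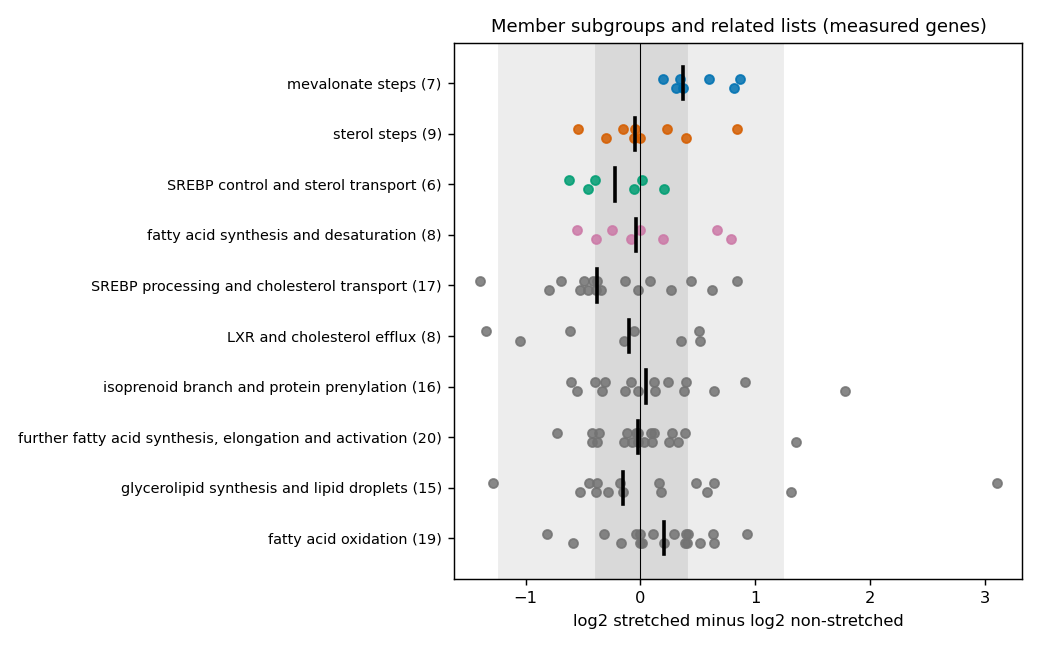
Log2 difference (stretched minus non-stretched) of each measured gene in the 4 groups of members (coloured) and 6 related lists (grey), with the number of genes in brackets and the median as a black bar; dark and light bands hold the central 50% and 90% of all measured genes. The mevalonate median of 0.38 lies highest and that of SREBP processing and cholesterol transport, -0.38, lowest.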

How the data were processed

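The authors deposited 1 linear signal intensity for each probe set in each array, per the file's values, over 54675 probe sets of which 62 are controls. How probe signals were summarised, scaled and called detected is not given in the sources used here. Per the labels' protocols, biotin-labelled cRNA was made from 6 µg of column-purified total RNA.

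The intensities were used as deposited, without further normalization, after conversion to log2. An array's 50th percentile served as its floor, and lower values were raised to it. Names came from the array's annotation, with symbols updated by gene ID through RefSeq's GRCh38.p14 table, used for names only: 41037 received a current and 54 an older symbol, while 1801 with several genes and 11721 without a name entered no count. The probe set brightest on average over both arrays stood for its gene, which was counted as higher or lower at 2-fold. Every member is described by value. In each related list, the 2 genes with the largest difference above the floor in both arrays are named, and any gene above it in 1 array only that differs 2-fold; MBTPS1, MBTPS2 and LPIN2 were named outside this rule after their values were seen.

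No test between the conditions is possible with 1 array each. The members and lists were chosen with earlier results of these data known. The gene summary was tested on simulated arrays. Alternatives changed the floor, the probe sets used, the scaling (75th percentile, spike-ins, quantile, loess with a span of 0.3) and the gene names. Computations used Python 3.11.15, pandas 2.3.3, NumPy 2.4.6, statsmodels 0.14.6 and matplotlib 3.10.9.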

Additional observations from a re-analysis of the deposited data

How the results depend on the processing

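Under 9 alternatives, 250 of 258 values of single members stayed within the probe-set SD of 0.36 and 8 moved farther: with the probe sets of a gene averaged, HMGCS1 was at 1.02, ELOVL6 at 1.24, SQLE at 0.43, SREBF1 at -0.06, ACACA at 0.35, ELOVL5 at 0.37 and FADS2 at -0.57, and using only probe sets that end in neither _x_at nor _s_at, MVK was at -0.34. Many of the 258 values could not move that far. Changing the floor leaves a brightest probe set above it in both arrays as it was. Centring shifts all genes by 0.11, less than 0.36. All 8 moved values came from the 2 alternatives that changed the probe sets, so 250 of 258 is no measure of stability. Averaging thus put 2 members past 2-fold higher (1 in the mevalonate steps and 1 in fatty acid synthesis) and 0 past 1.5-fold lower. The medians then became 0.20 for all members, 0.63 for the mevalonate steps, -0.058 for SREBP control and 0.36 for fatty acid synthesis. That restriction kept 19 members, with 3 past 1.5-fold higher and medians of 0.25 for the mevalonate steps, 0.24 for the sterol steps and -0.36 for SREBP control. Centring on the 75th percentile gave medians of -0.10 for all members, 0.27, -0.15, -0.33 and -0.15 for the 4 groups in the order of the report, and centring on the spike-ins gave 0.12, then 0.49, 0.070, -0.11 and 0.075. The numbers past 1.5-fold higher and lower were 4 and 3 with centring on the 75th percentile or the loess trend removed, 5 and 3 with quantile normalization, and 6 and 0 with the spike-ins. Medians not named moved by at most 0.1, and no other alternative put a member past 2-fold. The mevalonate median was above 0 and the SREBP control median below 0 under all 9. With probe sets averaged, the SREBP control median of -0.058 was closer to 0 than the shift with centring, so its direction was not settled there. The shifts with centring follow from its construction, since all genes move together; the causes of the others were not tested. No paired analysis was possible because each condition has 1 array. The number of arrays limits what these values can show.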
